A study of Mus musculus with 2 samples.

Results

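The Krüppel-like factor genes Klf2, Klf4 and Klf5 were examined in a chromatin immunoprecipitation on promoter microarrays (ChIP-on-chip) for Tcf3 in mouse embryonic stem cells. They were chosen by name, as all non-control probes whose gene annotation on the arrays is one of these names or a hyphen-joined pair that holds one. This gave 122 probes of 474380, for 3 genes of 17119: 38 probes for Klf2, 38 for Klf4 and 46 for Klf5, with 0 probes annotated to a pair. The study has 1 group, the E14 line of mouse embryonic stem cells grown without feeders, for which the labels give no treatment or genetic change. The 2 Agilent arrays share 0 probes, and each was hybridised with immunoprecipitated DNA (Cy5) and input DNA (Cy3). Klf2 and Klf4 lie on array 1 and Klf5 lies on array 2, so every probe was read once. There was no replicate and no control immunoprecipitation on an array, so no difference between genes could be tested. The antibody was taken as Tcf3 from the sample titles, since the protocol lists several without saying which one was used for the arrays. Because the arrays measure DNA and not RNA, the cell label could not be checked against marker genes.

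Krüppel-like factors are zinc finger transcription factors that bind GC-rich and CACCC sequences. In mouse embryonic stem cells Klf2, Klf4 and Klf5 help to hold the naive, self-renewing state, and Klf4, which acts downstream of LIF and Stat3, is also one of the factors used to reprogram somatic cells. Tcf3, encoded by Tcf7l1, belongs to the Tcf/Lef factors and represses its target genes in these cells, and Wnt signalling through beta-catenin relieves that repression. Tcf/Lef factors recognise the core letters CTTTGA or CTTTGT.

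The sequences below are the probes of the highest stretch of each gene, 5′ to 3′ as printed on the array, together with the next enriched Klf2 probes. Capitals mark CTTTGA or CTTTGT on either strand. They are shown because the highest sets of the 3 genes differ in mean GC content. The Klf2 probes are named by their distance from the Klf2 transcription start (negative is upstream), and they extend from chr8:70838916-70838975 to chr8:70840066-70840125. Probe positions are those of the array annotation, whose build is not given in the sources consulted.
Klf2 probe at -3012 bp: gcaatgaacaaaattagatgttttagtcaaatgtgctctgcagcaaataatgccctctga
Klf2 probe at -2866 bp: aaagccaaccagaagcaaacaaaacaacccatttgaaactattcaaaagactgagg
Klf2 probe at -2703 bp: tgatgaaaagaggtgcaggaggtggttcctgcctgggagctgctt
Klf2 probe at -2252 bp: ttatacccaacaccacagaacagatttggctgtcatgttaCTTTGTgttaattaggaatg
Klf2 probe at -1862 bp: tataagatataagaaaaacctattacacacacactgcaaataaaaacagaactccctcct
Klf4 probe at -328 bp: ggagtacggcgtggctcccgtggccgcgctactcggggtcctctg
Klf4 probe at -494 bp: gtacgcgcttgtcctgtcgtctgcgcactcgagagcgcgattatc
Klf4 probe at -682 bp: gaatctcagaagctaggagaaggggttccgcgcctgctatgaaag
Klf5 probe at chr14:93700207-93700251: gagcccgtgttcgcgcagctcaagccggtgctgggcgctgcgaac
Klf5 probe at chr14:93700331-93700375: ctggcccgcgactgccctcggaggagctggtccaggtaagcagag
Klf5 probe at chr14:93700439-93700483: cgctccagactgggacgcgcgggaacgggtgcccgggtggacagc

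The 250 bases before the transcription start of Klf2 and of Klf4 follow, from RefSeq (GRCm38.p6), with capitals for the bases that a probe of the array covers. They show how much of each proximal promoter was read: 1 probe of Klf2 and 2 of Klf4. The Klf2 sequence is chr8:72318812-72319061 on the plus strand and has 71.2% GC. The Klf4 sequence is chr4:55532476-55532725 on the minus strand and has 74% GC.
Klf2 promoter: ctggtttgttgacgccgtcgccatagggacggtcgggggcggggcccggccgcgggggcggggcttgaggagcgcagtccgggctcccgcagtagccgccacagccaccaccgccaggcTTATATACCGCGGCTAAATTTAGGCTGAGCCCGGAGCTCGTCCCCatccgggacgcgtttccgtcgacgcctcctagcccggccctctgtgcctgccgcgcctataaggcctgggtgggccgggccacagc
Klf4 promoter: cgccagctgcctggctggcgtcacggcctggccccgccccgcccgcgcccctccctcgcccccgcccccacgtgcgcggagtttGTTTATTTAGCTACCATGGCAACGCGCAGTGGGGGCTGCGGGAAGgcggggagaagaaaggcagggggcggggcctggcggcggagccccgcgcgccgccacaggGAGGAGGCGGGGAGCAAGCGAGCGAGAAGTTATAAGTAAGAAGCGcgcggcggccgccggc

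Values are log2 ratios of immunoprecipitate over input, centred on the median of each array, so 0 is the array's median probe. A set joins each probe to the closest probe on either side, up to 1000 bp away (2 or 3 probes), and its SD is the scatter of those probes along the DNA, not an error over replicates. A probe was called where its set mean had an upper-tail normal probability under 0.001 on the scatter of the array's lower values, and single probes of the set bore it out, either the middle one (under 0.001, beside one under 0.1) or any 2 (each under 0.005). A gene was called where 1 of its probes was. These probabilities are a calling rule and not a test. Of the 3 genes, Klf2 was called and Klf4 and Klf5 were not, where 12.8% of all genes were called (21.9% for array 1, 3.53% for array 2). Klf2 had the highest set mean, 2.83 ± 1.09 (SD, 3 probes), a 7.10-fold ratio. Klf5 followed with 1.76 ± 0.99 (SD, 3 probes), a 3.39-fold ratio, and Klf4 had 1.37 ± 0.50 (SD, 3 probes), a 2.58-fold ratio. Klf5 was read on another array than Klf4, and with every probe read once their difference could not be tested.

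**Figure D1:**
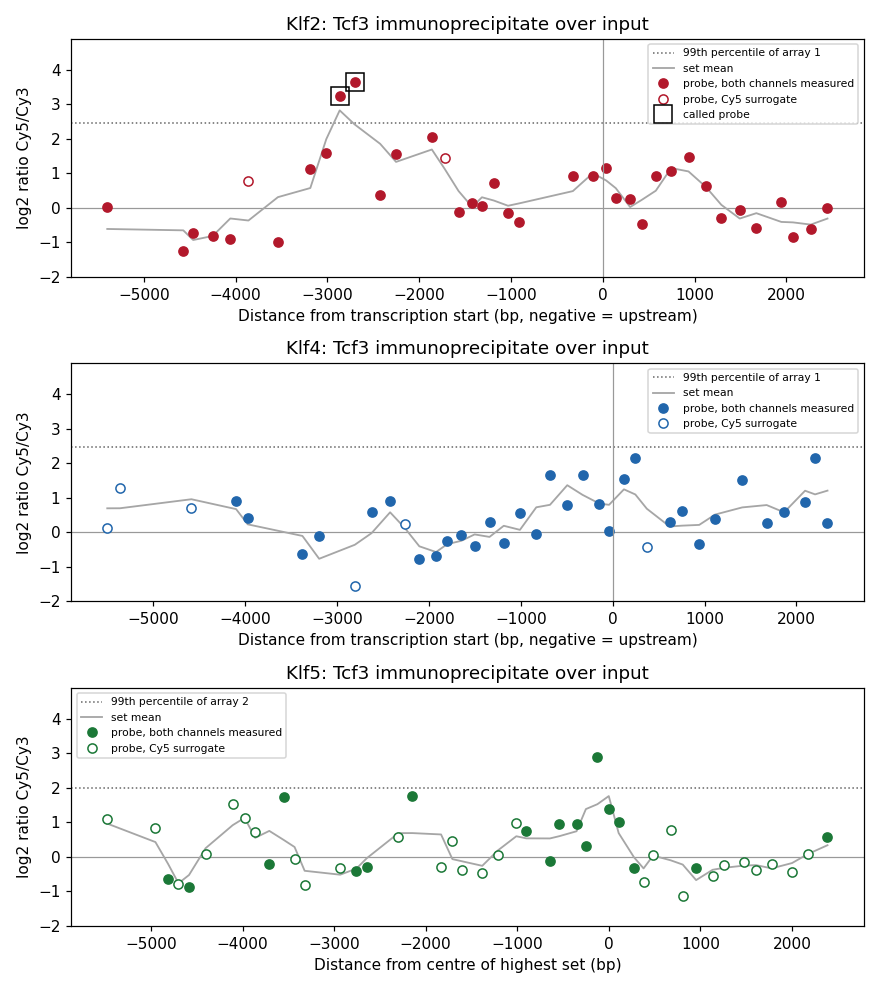
Log2 ratio of Cy5 (immunoprecipitate) over Cy3 (input) for every probe of Klf2, Klf4 and Klf5 against distance in bp from the transcription start, or for Klf5 from the centre of its highest set in array direction. Filled points were measured in both channels, open points hold a surrogate Cy5 value, squares mark called probes, the grey line is the set mean and the dotted line the array's 99th percentile. The 2 called probes of Klf2 are the only probes of Klf2 and Klf4 above that line, at 3.26 and 3.64, and 1 Klf5 probe lies above it at 2.89.

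Klf2 carried 1 narrow high stretch well upstream of its start. Its 38 probes covered chr8:70836537-70844435 and ranged from -1.25 to 3.64 with a median of 0.22. Only 3 of them exceeded 2, and 15 were below 0. The highest set lay at chr8:70838916-70839276, centred at -2866 bp. Within it, the probe at -3012 bp read 1.58, a 3.00-fold ratio. The probe at -2866 bp read 3.26, a 9.57-fold ratio, with a Cy5 intensity of 23056 against a Cy3 intensity of 2848. The probe at -2703 bp read 3.64, a 12.4-fold ratio, with a Cy5 intensity of 55694 against a Cy3 intensity of 5287. These last 2 were the called probes, and 99.8% and 99.9% of the probes of array 1 were lower than them.

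The Klf2 signal fell off on both sides of that stretch. The probe just downstream, at -2425 bp, read 0.36. A second, lower stretch of 3 probes above 1 followed at chr8:70839675-70840260, with a mean of 1.69. Its probe at -2252 bp read 1.57, its probe at -1862 bp read 2.07, and its probe at -1722 bp read 1.44 with a surrogate Cy5 value. Further upstream than -3500 bp the 7 probes had a median of -0.82 and a highest value of 0.79. Between -1500 and -500 bp the 5 probes had a median of 0.06, and within 500 bp of the start the 6 probes ran from -0.48 to 1.16. Thus 7 of the 9 probes between -3500 and -1500 bp exceeded 1, against 1 of the 6 around the start and 0 of the 5 in between.

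Among the 8545 genes of array 1 with a set, 28 had a higher set than Klf2. The distance from the start was also set beside that of other called genes, for those whose start could be placed on the arrays by matching probes to RefSeq promoters. Of 1509 such called genes, 39.7% had their highest set within 500 bp of the start and 20.6% had it more than 2500 bp upstream, as Klf2 did. With measured spots only, 12.2% of 1550 called genes lay that far upstream, and 27.0% of 1461 did when the trend with GC content was subtracted as well. Over all genes with a placed start, called or not, the share that far upstream was 23.1% on all spots. Among the 1509 called genes on all spots, 311 had their highest set that far upstream, Klf2 included.

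Klf4 had lower values spread over its start and gene body. Its 38 probes covered chr4:55543934-55551823 and ranged from -1.57 to 2.16 with a median of 0.35. The highest set, at chr4:55546600-55546998, was centred at -494 bp and held values of 1.66, 0.79 and 1.66. The 2 highest single probes of Klf4 lay downstream of the start, with 2.16 at 247 bp and 2.16 at 2203 bp, and the probes at 123 and 1410 bp read 1.55 and 1.52. Directly before the start the values were lower, 0.82 at -144 bp and 0.03 at -39 bp. Between -3500 and -1500 bp, where Klf2 was high, the 11 Klf4 probes had a median of -0.25 and 0 of them exceeded 1. Of the other genes of array 1, 3386 had a higher set than Klf4.

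Klf5 rested on fewer measured probes. Of its 46 probes, over chr14:93694847-93702768, 28 held a surrogate in the Cy5 channel, which the scanner software writes where a signal is not above background, against 2 of 38 for Klf2 and 6 of 38 for Klf4. On array 2 as a whole 51.7% of probes held such a value, and on array 1 30.7%. The values of Klf5 ranged from -1.13 to 2.89 with a median of -0.01. Its highest set, at chr14:93700207-93700483, held 2.89, 1.38 and 1.02, so 1 probe stood far above its neighbours. That probe had a Cy5 intensity of 4886 against a Cy3 intensity of 673, a 7.41-fold ratio, and 99.9% of the probes of array 2 were lower. The probe at chr14:93698178-93698237 read 1.78 and the probe at chr14:93696776-93696828 read 1.74, each without a high neighbour. With measured spots only, the Klf5 set had a mean of 1.95, a 3.85-fold ratio, and 1 probe was called.

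**Figure D2:**
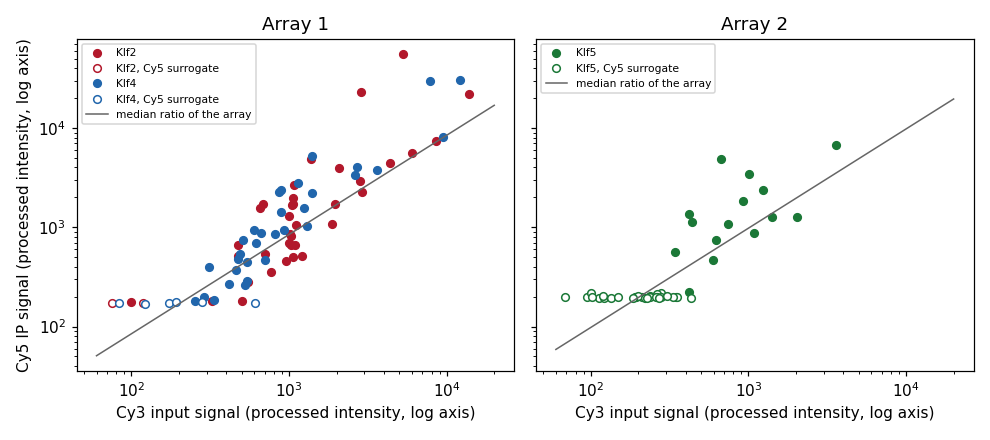
Processed Cy5 intensity against processed Cy3 intensity, both on log axes, for the probes of Klf2 and Klf4 on array 1 and of Klf5 on array 2. The line is each array's median ratio and open points hold a surrogate Cy5 value. The 2 called Klf2 probes (Cy5 of 23056 and 55694) lie far above the line, while 28 Klf5 probes lie in a flat row at the floor of the Cy5 channel.

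The highest sets of the 3 genes differed in mean GC content, though single probes overlapped. The Klf2 probe at -2703 bp has 55.6% GC and the Klf4 probe at -682 bp has 53.3%. On both arrays the log2 ratio moved with the GC content of the probe, being higher at both GC-poor and GC-rich probes than near the median of 40.4%. In the bin centred on 21% GC the median and 95th percentile were 2.10 and 2.20 on array 1, and 1.49 and 1.58 on array 2. These values include surrogate Cy5 values, whose part in the rise at GC-poor probes was not tested. The mean GC content of the highest set was 43.2% for Klf2, 62.2% for Klf4 and 71.9% for Klf5. Among array 1 probes of the same GC content (bins of 2%), 0.111% were as high as the Klf2 probe at -2866 bp and 0.0627% as high as the one at -2703 bp. For the 3 probes of the Klf4 set the least frequent was the one at -682 bp, which 4.20% of its bin equalled or exceeded, and the one at -328 bp was equalled or exceeded by 44.0%. The 2 Klf4 probes at 247 and 123 bp, which have 77.8% GC, were equalled or exceeded by 30.8% and 52.4% of their bin. The Klf4 probes at 2203 bp (62.2% GC) and 1410 bp (44% GC) were less frequent, at 6.44% and 3.74%. The Klf5 probe of 2.89 was equalled or exceeded by 2.68% of its bin. The Klf5 probes of 1.78 and 1.74, in DNA of 38.3% and 41.5% GC, were less frequent for their composition, at 0.787% and 0.745%.

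**Figure D3:**
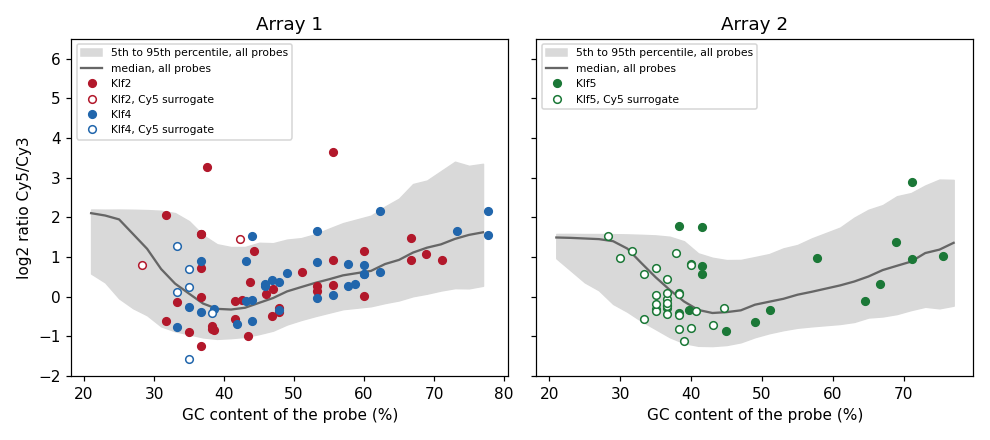
Log2 ratio of Cy5 over Cy3 against the GC content of the probe in percent, for array 1 (Klf2, Klf4) and array 2 (Klf5). The grey band runs from the 5th to the 95th percentile of all probes at that GC content, the line is their median, and open points hold a surrogate Cy5 value. The 2 called Klf2 probes, at 37.5% and 55.6% GC, lie far above the band, while the GC-rich Klf4 probes lie inside or at the edge of it.

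The order of the genes was then read with measured spots only and the median of each GC bin subtracted. The highest Klf2 set was 2.90 ± 0.88 (SD, 3 probes), a 7.48-fold ratio, and 6 probes from -3012 to -1862 bp were called instead of 2. In this reading 18 genes of array 1 had a higher set. Klf5 had 1.01 ± 1.59 (SD, 2 probes), a 2.02-fold ratio, and was not called. Its set moved to the probe at chr14:93698178-93698237 (2.14), joined to the one at chr14:93697680-93697739 (-0.11). Klf4 had 0.83 ± 0.72 (SD, 3 probes), a 1.77-fold ratio, centred at 1410 bp, and was not called. So 1 of the 3 genes was called, where 12.8% of all genes were (18.5% on array 1 and 6.96% on array 2). With measured spots and no GC step, 2 of the 3 were called, Klf2 and Klf5, where 13.2% of all genes were (15.8% on array 1 and 10.5% on array 2). The part of base composition in the Klf4 and Klf5 values was not tested beyond these readings.

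The Tcf/Lef core was not more frequent in these probes than on the arrays. CTTTGA or CTTTGT, on either strand, occurred in 12 of the 122 probes (9.84%) and in 10.1% of all probes. Klf4 had 7 such probes (18.4% of its probes), Klf2 had 4 (10.5%) and Klf5 had 1 (2.17%). The Klf2 probe at -2252 bp, printed above, holds CTTTGT and read 1.57, while the other 3 Klf2 probes with the core read 0.03 at -5398 bp, -0.12 at -1571 bp and -0.01 at 2448 bp. Neither Klf2 probe called on all spots holds the core. On measured spots with the GC step the Klf2 probe at -2252 bp, which holds it, was called too. Of the 7 Klf4 probes with it, 5 were measured in both channels, and they read 0.91 at -2422 bp, -0.05 at -831 bp, -0.09 at -1648 bp, -0.25 at -1800 bp and -0.68 at -1922 bp. The remaining Klf4 probes, with surrogate Cy5 values, read 0.70 at -4584 bp and 1.28 at -5362 bp, and the Klf5 probe, also a surrogate, read 0.08. The probes cover 25.1% of the bases of the Klf2 region, 24.4% of the Klf4 region and 32.4% of the Klf5 region, so most of the DNA lies between them. Neither the Klf2 nor the Klf4 promoter holds the core in the RefSeq window from 250 bases before to 50 after the start, and 31.2% of 32851 promoters do.

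The GC box GGGCGG and the CACCC letters CCACACCC, which Krüppel-like and Sp factors bind, were searched in the same way. CGGCGGC was searched as a GC-rich repeat, not as a binding site of these factors. The GC box GGGCGG, on either strand, occurred in 3 of the 122 probes (2.46%), all of them of Klf4, and in 0.660% of all probes. CCACACCC and CGGCGGC occurred in 0 of the 122 probes and in 0.121% and 0.151% of all probes. In the promoter windows GGGCGG occurred at 2 places for Klf2 and 4 for Klf4, and 35.7% of promoters hold it. CGGCGGC, which can overlap GGGCGG, occurred at 2 places for Klf4, and 10.1% of promoters hold it.

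The rest of the family gives the setting for the 3 genes. Of 22 other Klf and Sp genes listed, 20 had probes, and Klf14 and Sp2 are not analysed here. Of the 20, 5 were called (25%), against 12.8% of all genes. By array, 4 of 8 family genes were called on array 1, where 21.9% of genes were, and 1 of 12 on array 2, where 3.53% were. The median highest set mean of the 20 was 1.45 against 1.15 over all genes. Klf2 lay above all 20. Klf16 had 2.45 ± 0.66 (SD, 3 probes). Klf3, which encodes a repressor that binds CtBP, had 2.12 ± 1.83 (SD, 3 probes). Sp9, a factor of limb and forebrain development, had 2.10 ± 1.16 (SD, 3 probes), Klf7 2.02 ± 2.28 (SD, 2 probes) and Klf15 1.87 ± 0.75 (SD, 3 probes). Klf7 alone of these 5 was not called, and the remaining called gene was Sp3 (named after its value was seen), whose set of 1.51 ± 0.96 held 3 surrogates. That Sp3 set was centred 5688 bp downstream of the nearest placed start. Some probes counted for Sp3 are annotated to the pair Sp3-1700011J10Rik, and to which of the pair that set belongs was not tested. Klf5 lay below the 5 highest family genes and Klf4 below the family median. After the GC step on measured spots Klf16 had 1.62, Klf3 1.23, Sp9 1.80, Klf7 2.07 and Klf15 0.52, all lower than the 2.90 of Klf2. The calls changed with it: of these genes and Sp3, Klf7, Klf16, Sp9 and Sp3 were called, and Klf3 and Klf15 were not.

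**Figure D4:**
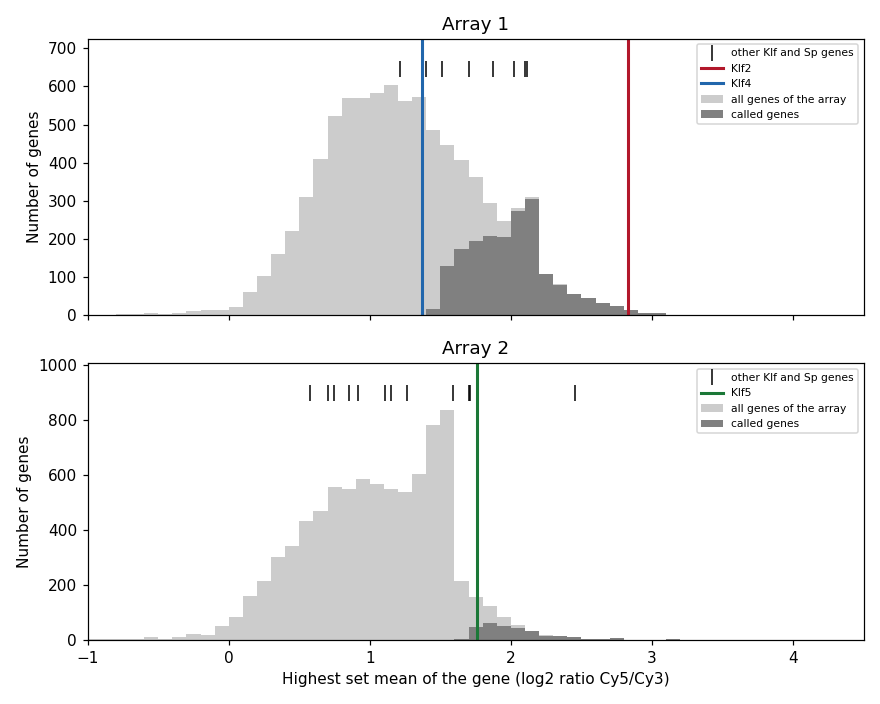
Number of genes by their highest set mean (log2 ratio, bins of 0.1) on array 1 and array 2, with called genes in dark grey. Coloured lines mark Klf2 (2.83), Klf4 (1.37) and Klf5 (1.76) and short black ticks the 20 other Klf and Sp genes. Klf2 lies in the far right tail of array 1, Klf4 in the body of the distribution and Klf5 at the left edge of the called genes of array 2.

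Genes of the naive stem cell network, listed with earlier results of these data known and so no independent evidence, were read beside the family. Of 27 listed genes 26 had probes (Prdm14 is not analysed here), and 10 were called (38.5%), against 12.8% of all genes, with a median highest set mean of 1.69. By array, 8 of 15 were called on array 1 (background 21.9%) and 2 of 11 on array 2 (background 3.53%). On measured spots with the GC step 20 of the 26 were called (76.9%), against 12.8% of all genes, with a median of 1.87 against 0.85 over all genes. These were 13 of 15 on array 1 (background 18.5%) and 7 of 11 on array 2 (background 6.96%). The same reading of the 20 family genes gave 5 called (25%), 3 of 8 on array 1 and 2 of 12 on array 2, and a median of 1.09. The lists divide unequally between the arrays, and their difference was not tested. The 5 network genes with the highest sets on all spots were Rif1 (a regulator of replication timing), Gbx2 (a homeobox gene downstream of LIF and Stat3), Trim28 (the corepressor of KRAB zinc finger proteins), Mycn (a Myc family factor) and Tcf7l1, the gene of Tcf3 itself. Rif1 (3.07 ± 0.41) and Gbx2 (2.96 ± 1.22) lay above Klf2, and Trim28 (2.69 ± 0.50), Mycn (2.65 ± 0.46) and Tcf7l1 (2.46 ± 0.83) lay below it (SD, 3 probes each). Mycn was read on array 2 and the other 4 on array 1. On measured spots with the GC step the order changed: Mycn had 3.07, Gbx2 2.93 and Trim28 2.92, above the 2.90 of Klf2, and Rif1 had 2.72 and Tcf7l1 2.65, below it. Whether Klf2 differs from these 5 could not be tested, since each gene was read on 1 array and the set SD is scatter along the DNA. The start of 3 of the 5 could be placed, and the highest set was centred at -9474 bp for Trim28 (with 1 surrogate in the set), at -5076 bp for Gbx2 and at -1599 bp for Mycn. Some probes counted for Trim28 are annotated to the pair Zfp499-Trim28, and to which of the pair that set belongs was not tested.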

How the data were processed

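Per the file headers, the authors extracted spots using Agilent Feature Extraction 9.1.1.1. Each channel's processed intensity, as deposited, had background removed and dyes normalized, and a surrogate replaced spots not above background, per the file headers. The authors' log10 ratio column, as deposited, served as an alternative. The series value table was not used.

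Computed here were log2 of processed Cy5 over Cy3, centred per array on the non-control median without non-uniform spots, and the sets and calls described above. The scale came from values below the median, for single probes and for sets of 2 or 3 separately. Each of 11 alternatives changed 1 choice, or spots and GC trend together. The caller was checked only on simulated independent normal values with planted stretches of 3 probes. These had no GC trend and no surrogates, so the check does not cover those features of the arrays. Normexp used limma 3.58.1 (R 4.3.3), and the rest pandas 2.3.3 and scipy 1.17.1 (Python 3.11.15).

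Gene names were updated with RefSeq (GRCm38.p6): 13968 array names were current, 3884 older and 696 unmatched. Start sites were placed by 17304 exact matches of probes to RefSeq promoters, for 10890 genes. Named were Klf2, Klf4 and Klf5, any pair with them, and the 5 highest genes of each list. The members, lists and settings were chosen with earlier results of these data known. With 1 array per gene, the precision is set by the number of arrays. Some items are not reported here.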

Additional observations from a re-analysis of the deposited data

How the results depend on the processing

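Klf2 stayed called in all 11 alternatives, with a highest set mean from 1.88 (intensity trend subtracted) to 2.90. Of these, the set probability of 0.01 only loosens the rule, so it could not undo a call. Klf4 was called in 2, with normexp (1.31) and with the intensity trend subtracted (1.14). Klf5 was called in 5: measured spots only (1.95), the deposited log10 ratio (1.76), normexp (2.21), the intensity trend (1.73) and a set probability of 0.01 (1.76). Called probes of Klf2 numbered 5 with the GC trend subtracted from all spots, 6 on measured spots with the GC step, 5 with the intensity trend and 7 with normexp. Those of Klf4 numbered 1 with the intensity trend and 6 with normexp. Those of Klf5 numbered 1 on measured spots, with the deposited ratio and at 0.01, 4 with the intensity trend and 7 with normexp. Family genes called numbered 3 with the GC trend subtracted from all spots, 8 at 0.01, 16 with the intensity trend and 17 with normexp. Network genes called numbered 16 on measured spots, 19 with the GC trend on all spots, 20 with both, 25 with the intensity trend and 25 with normexp. These counts stand beside those over all genes. Of 17119 genes, 2188 were called without any alternative, 1801 with the GC trend subtracted from all spots and 2801 at 0.01. The deposited ratio called 1350, signals before dye normalization 2154 and a neighbour distance of 500 bp 2151. At a set probability of 0.0001, 1395 were called. With spots of any outlier or saturation mark left out, 2109 genes were called. The intensity trend called 7419 and normexp 8411, and the cause was not tested. Of 16941 genes with measured spots, 2232 were called, and 2170 with the GC step. Leaving out an array was not possible, since each gene lies on 1 array and removing it removes the gene. No paired analysis was possible because there is 1 group. Of the probes called on array 1, 57.6% held a surrogate, while the Klf2 set held none. For Klf5, 28 of 46 probes were not above background in Cy5, and its highest set mean was 1.05 with the GC trend subtracted from all spots and 1.01 on measured spots with the GC step.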
